A study of Mus musculus with 20 samples.

Results

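Transcript levels of embryonic mouse brain were compared between days E16.5 and E12.5 of development, with 4 libraries of each stage chosen by their labels out of the 20 libraries of the series. All 8 came from wild-type C57BL/6J embryos and from fresh-frozen tissue given 0.2% formaldehyde. They had been treated for MAPIT-seq, an assay in which an antibody brings a fusion of 2 RNA deaminases (rAPOBEC1-pAG-hADAR2) to RNA near a chosen protein, so that editing marks the bound transcripts. At each stage 2 libraries had received rabbit IgG and 2 an antibody against G3BP1, an RNA-binding protein of stress granules, each followed by a guinea pig anti-rabbit antibody. Only the transcript levels of these libraries are described here, in TPM, a level corrected for gene length and scaled to the same total in each library. The labels call the tissue of both stages embryo brain and give no brain region, no sex. They also do not say whether 2 replicates stem from different embryos, so the tests rest on the variation among libraries, which may be technical. Stage, the tissue that was taken and the deposited table change together, and their parts in a difference cannot be told apart. In bulk tissue, fewer cells of a type and less RNA per cell cannot be told apart either.

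The embryonic brain is built from a sheet of dividing progenitors, the radial glia and their forerunners, which first yield neurons and later astroglia and oligodendrocyte precursors. At the earlier of these ages most regions are dominated by proliferation and by the signals and transcription factors that divide the neural tube into telencephalon, diencephalon, midbrain and hindbrain. By the later one, projection neurons of the cortex are being layered, interneurons migrate in from the ventral telencephalon, and the machinery of axons and synapses is being assembled. Red cells change over in the same days, from the primitive lineage of the yolk sac to the definitive lineage of the fetal liver.

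The libraries of the 2 stages were unequal in depth and in spread. Reads covering 51439 edited positions present in both editing tables averaged 15.5 to 49.0 per position at E12.5 and 150 to 259 at E16.5, with the lowest value in the first E12.5 IgG library. TPM itself keeps no depth, so no counting interval can be given for a single gene. Over the genes tested, Pearson correlations of log2(TPM + 1) across genes, which are not independent replicates, were 0.908 to 0.943 within E12.5, 0.980 to 0.986 within E16.5 and 0.827 to 0.884 between stages. The median SD of a gene was 0.363 at E12.5 and 0.140 at E16.5 on that log2 scale. A first principal component with 63.7% of the variance separated the stages, and a second with 14.3% set the first E12.5 IgG library apart. Between 17324 and 18361 genes reached 1 TPM in each library.

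Of 34555 genes in both tables, 20162 reached 1 TPM in at least 2 libraries and were tested with limma on log2(TPM + 1), with the antibody as a covariate. A difference below is the fitted E16.5 minus E12.5 difference on the log2(TPM + 1) scale, which understates the change of genes near 0. At an adjusted p under 0.05, 6516 genes (32.3%) were higher and 3573 (17.7%) lower at E16.5. At 2-fold or more as well, 3634 (18%) were higher and 1810 (8.98%) lower. The counts of each gene group below are to be read against these shares. In any group, a gene that passed the filter only through the stage where it is high had to differ in that direction. In 9621 of the 20162 tested genes the libraries of the 2 stages did not overlap, so a lack of overlap in a gene named below is common. The median difference over all tested genes was 0.17, and 64.6% of called genes were higher; after quantile normalization the median was -0.03 and 51.8% were higher (5190 against 4830). No gene was called in the opposite direction under any alternative run. Without the first E12.5 IgG library, 6627 genes were higher and 3731 lower.

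**Figure D1:**
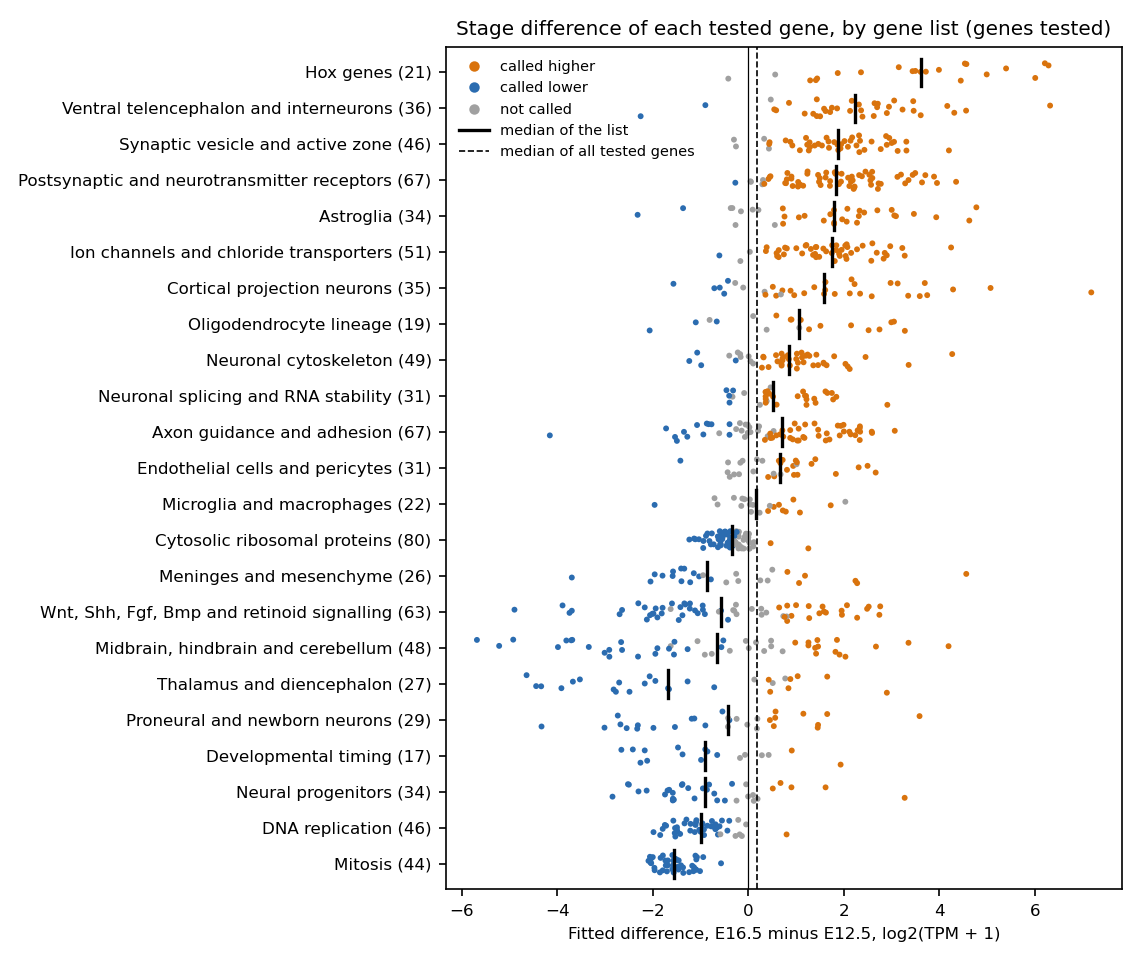
Fitted difference between stages, E16.5 minus E12.5 in log2(TPM + 1) on the horizontal axis, for each tested gene of 23 gene lists. Each point is 1 gene, coloured by its call, black bars are list medians and the dashed line is the median of all tested genes, 0.17. Mitosis and DNA replication lie to the left (medians -1.55 and -0.98), and synaptic, ventral telencephalic and Hox genes to the right (1.88, 2.24 and 3.61). A Hox gene that reached 1 TPM only at E16.5 had to lie to the right.

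The largest differences lay in genes of brain regions, of red cells and of the sex chromosomes. Values are given throughout in the order first IgG, second IgG, first anti-G3BP1 and second anti-G3BP1 library. Neurod6, a transcription factor of cortical projection neurons, measured 1.81, 3.16, 2.03 and 0 TPM at E12.5 and 327, 331, 397 and 363 TPM at E16.5, a difference of 7.18 (SE 0.36, adjusted p = 2.01e-06). Every E16.5 library lay far above every E12.5 library for this gene. In the other direction En2 (chr5:28165694-28172166, GRCm38), a homeobox gene of the midbrain and its border with the hindbrain, measured 16.4, 69.6, 51.5 and 33.1 TPM at E12.5 and 0.0496, 0, 0 and 0.0992 TPM at E16.5, a difference of -5.22 (SE 0.40, adjusted p = 1.35e-05). Tal2, a transcription factor of midbrain GABAergic neurons, measured 85.6, 103, 85.4 and 109 TPM at E12.5 and 0.827, 1.15, 0.969 and 0.591 TPM at E16.5 and differed by -5.68 (SE 0.17, adjusted p = 3.05e-07). Both were near 0 in each E16.5 library. The other genes of the largest rises included the neuropeptide genes Npy and Crh, the astroglial matrix gene Tnc and Pcp4, with differences of 6.32, 4.59, 4.78 and 4.60. Avp, the vasopressin gene, and Vax1, a homeobox gene of the ventral forebrain, were listed at 0 in all 4 E12.5 libraries and at 32.2 to 58.3 and 21.1 to 35.4 TPM at E16.5.

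Most genes of the telencephalon were higher at E16.5. Of 36 genes of the ventral telencephalon and its interneurons, 33 were higher (30 at 2-fold or more) and 2 lower, with a median of 2.24 against 0.17 for all genes, and their summed level was 579 to 967 TPM at E12.5 and 3544 to 3961 TPM at E16.5. Dlx1, which with its neighbour Dlx2 specifies GABAergic interneurons, measured 41.9, 37.4, 29.4 and 20.3 TPM at E12.5 and 231, 259.8, 255 and 243 TPM at E16.5, a difference of 2.95 (SE 0.17, adjusted p = 2.97e-06). Nkx2-1, which defines the medial ganglionic eminence, measured 16.4, 17.5, 14.1 and 5.86 TPM at E12.5 and 117, 126, 127 and 133 TPM at E16.5, a difference of 3.23 (SE 0.26, adjusted p = 1.81e-05). No library of one stage reached the levels of the other in either gene, and the second anti-G3BP1 library of E12.5 was the lowest for both. Lhx6 and Lhx8, which act after Nkx2-1 in interneurons and cholinergic neurons, differed by 3.61 and 4.17. Among genes of striatal neurons on the same list, Penk, the enkephalin precursor, rose by 3.45, Ppp1r1b, which encodes DARPP-32, by 4.31 and Drd1, a dopamine receptor, by 2.64. Ebf1, a factor of early striatal and other newborn neurons, fell by 0.90, and Zfp503, of striatal progenitors and neurons, was not called, with 18.9 to 38.5 TPM at E12.5 and 32.4 to 39.8 TPM at E16.5. Zfp503 was called higher without the second E12.5 IgG library, by 0.62, without the second E16.5 IgG library, by 0.61, and in the anti-G3BP1 libraries alone, by 0.86. Sst, the somatostatin gene, measured 315, 305, 141 and 148.6 TPM at E12.5 and 1189.5, 1319.7, 978 and 1006 TPM at E16.5, a difference of 2.39 (SE 0.14, adjusted p = 3.98e-06). At E12.5 both IgG libraries lay above both anti-G3BP1 libraries, as they also did for Npy, which measured 89.1, 20.4, 0 and 0 TPM at E12.5 and 489, 593, 524 and 513 TPM at E16.5.

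Cortical projection neuron genes were higher in 26 of 35 cases (20 at 2-fold or more) and lower in 5, with a median of 1.59. Their summed level was 727 to 856 TPM at E12.5 and 2421 to 2605 TPM at E16.5. Tbr1, a factor of layer 6 and subplate neurons, measured 15.6, 10.8, 4.25 and 2.13 TPM at E12.5 and 141, 142, 162 and 141 TPM at E16.5, a difference of 4.29 (SE 0.37, adjusted p = 2.38e-05). Both E12.5 IgG libraries exceeded both anti-G3BP1 libraries for Tbr1, while the E16.5 libraries lay close together and far above them. Bcl11b and Fezf2, factors of corticospinal neurons, rose by 3.59 and 2.34, and Eomes, a factor of intermediate progenitors of the cortex, by 3.59. The 5 lower members of the projection neuron list were Cplx3, Pou3f2, Ccn2, Nr4a2 and Cux1, of which only Cplx3 fell by 2-fold or more. The patterning factors of the pallium were divided: of 18, 6 were higher and 10 lower, with a median of -0.84. Among them Emx2 measured 38.1, 45.4, 57.1 and 57.5 TPM at E12.5 and 24.4, 27.04, 30.9 and 26.96 TPM at E16.5 and differed by -0.82. Lhx2 and Nr2f1 fell, with differences of -0.87 and -1.61. Reelin (Reln), made by Cajal-Retzius cells and later by interneurons, rose by 1.79; of 8 Cajal-Retzius genes 3 were higher and 3 lower.

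Many genes of the diencephalon and midbrain were lower at E16.5. Of 27 thalamic and diencephalic genes 17 were lower (16 at 2-fold or more) and 7 higher (3 at 2-fold or more), with a median of -1.68. Those 3 were Calb2, Cbln1 and Tshz1. The summed level of the list was 1665 to 1747 TPM at E12.5 and 669 to 776 TPM at E16.5. Tcf7l2 (chr19:55741820-55933654), a Wnt effector that marks thalamic neurons, measured 246, 189.7, 262 and 288 TPM at E12.5 and 9.75, 8.48, 8.74 and 8.27 TPM at E16.5, a difference of -4.64 (SE 0.13, adjusted p = 2.76e-07). Irx3, a homeobox gene of the caudal diencephalon and regions behind it, measured 171, 192, 211 and 227 TPM at E12.5 and 7.59, 8.32, 11.05 and 8.96 TPM at E16.5, a difference of -4.34 (SE 0.10, adjusted p = 9.76e-08). The highest E16.5 library was far below the lowest E12.5 library in both genes. Olig3, of thalamic progenitors, and Barhl2, of the diencephalon, differed by -4.44 and -3.53. Of 48 midbrain, hindbrain and cerebellar genes 22 were lower (20 at 2-fold or more) and 14 higher (13 at 2-fold or more), with a median of -0.66. Otx2, which specifies forebrain and midbrain, measured 196, 186, 165 and 155 TPM at E12.5 and 9.73, 8.18, 10.6 and 12.3 TPM at E16.5 and fell by 3.99. Pax7 and Pax3, of the dorsal midbrain, and Lmx1a and Foxa2, of its floor, differed by -3.81, -3.69, -3.71 and -4.92. The other direction was taken by Slc6a5, the neuronal glycine transporter gene, which rose by 3.36, and by Lbx1, a factor of dorsal hindbrain and spinal neurons, which rose by 4.19. The vesicular monoamine transporter gene Slc18a2 and the acetylcholine transporter gene Slc18a3 rose by 1.40 and 2.67. Pax2, which patterns the isthmus early and marks inhibitory neurons of hindbrain and spinal cord later, measured 1.44, 10.2, 10.6 and 4.52 TPM at E12.5 and 23.4, 19.5, 21.03 and 26.4 TPM at E16.5 and rose by 1.86.

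**Figure D2:**
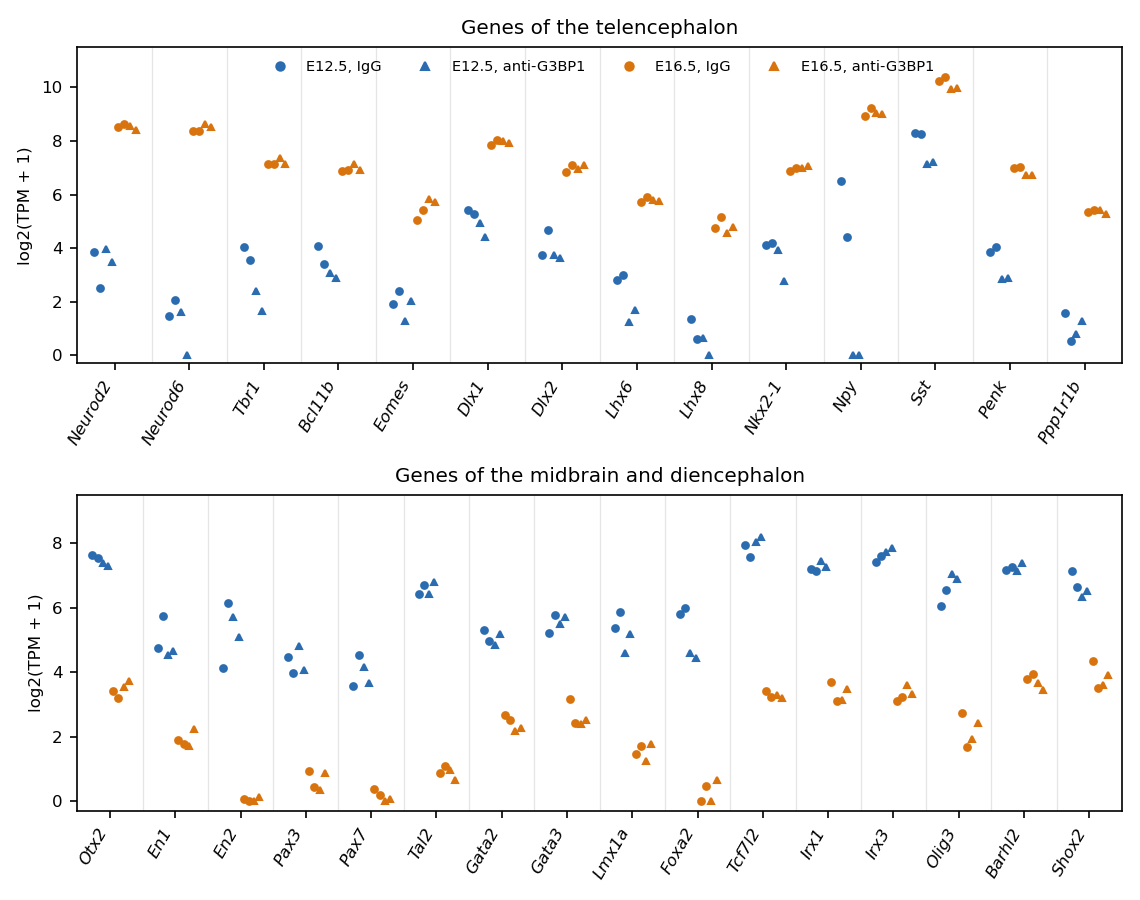
Levels of telencephalic genes (upper panel) and of midbrain and diencephalic genes (lower panel), as log2(TPM + 1), in each of the 8 libraries. Each point is 1 library, blue for E12.5 and orange for E16.5, a circle for IgG and a triangle for anti-G3BP1. Nkx2-1 lies at 5.86 to 17.5 TPM in blue and 117 to 133 TPM in orange, and En2 at 16.4 to 69.6 TPM in blue and below 1 TPM in orange.

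Hypothalamic and neuropeptide genes were split. Of 27 tested, 14 were higher, all by 2-fold or more, 3 were lower and 10 were not called. Avp, listed at 0 at E12.5, passed the filter only through E16.5 and had to be higher. The count therefore supports nothing by itself. Oxt, the oxytocin gene, measured 0, 6.33, 0 and 0 TPM at E12.5 and 15.7, 17.9, 26.3 and 26.2 TPM at E16.5, a difference of 3.74 (SE 0.63, adjusted p = 0.00112). Scg2 and Vgf, secreted proteins of neuropeptide granules, rose by 3.35 and 3.64. Cartpt, which encodes the CART peptides, measured 132, 118, 98.2 and 139.99 TPM at E12.5 and 26.8, 28.1, 14.2 and 18.1 TPM at E16.5, a difference of -2.47 (SE 0.17, adjusted p = 8.04e-06). Pomc, the precursor of melanocortins and one of the first hypothalamic peptide genes to be expressed, fell, with 14.7, 21.2, 11.1 and 12.2 TPM at E12.5 and 4.53, 6.25, 4.37 and 4.93 TPM at E16.5 and a difference of -1.36 (SE 0.20, adjusted p = 4.88e-04). The stages did not overlap in Cartpt or Pomc, which were higher at E12.5, nor in Oxt, which was higher at E16.5.

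The Hox genes, which give hindbrain and spinal cord their position along the body axis and are silent in forebrain and midbrain, appeared at E16.5. Of 35 Hox genes in the tables, 21 were tested, 19 were higher (all by 2-fold or more) and 2 were not called. Those 2 were Hoxd8 and Hoxd13, with adjusted p = 0.182 and 0.368. The 14 genes left out reached 1 TPM in fewer than 2 libraries. A gene that passed only through the stage where it is high had to differ, so the count over tested genes supports nothing by itself. The summed level over all 35 genes was 3.06 to 11.9 TPM at E12.5 and 525 to 669 TPM at E16.5. Hoxa5 measured 0, 1.45, 0 and 2.66 TPM at E12.5 and 129.96, 95.4, 139 and 152 TPM at E16.5, Hoxb8 0, 1.03, 1.11 and 0 TPM at E12.5 and 128, 118, 85.2 and 119 TPM at E16.5 and Hoxc4 0, 2.12, 0 and 0.432 TPM at E12.5 and 75.4, 56.9, 53.03 and 58.1 TPM at E16.5. At E12.5 each of these 3 was listed at 0 in at least 1 library and at under 3 TPM in the others. Hoxb5 was listed at 0 in every E12.5 library and at 63.3, 50.1, 62.1 and 82.1 TPM at E16.5.

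All 4 clusters held genes that rose, and the levels were uneven along them. Cluster A had 6 of its 6 tested genes higher, cluster B 8 of 8, cluster C 3 of 3 and cluster D 2 of 4. Like the count over all tested Hox genes, these counts support nothing by themselves. By paralog number, the mean E16.5 levels summed to 2.47 TPM for group 1, 41.4 TPM for group 2, 53.4 TPM for group 3, 114 TPM for group 4 and 205 TPM for group 5. They were 31.3, 29.2, 113 and 3.38 TPM for groups 6 to 9, and 0.0661, 0 and 0.444 TPM for groups 10, 11 and 13. Groups 10 to 13, which pattern the lumbar and tail levels, thus held no level above that of E12.5 (0.401, 0.148 and 1.07 TPM). The antisense genes Hoxb3os and Hoxb5os lie in the same cluster, and whether the counting used strand is not given in the sources used here, so their reads cannot be separated from those of the genes opposite. Hoxb3os differed by 4.70, and Hoxb5os was listed at 0 at E12.5 and at 18.1 to 32.8 TPM at E16.5.

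**Figure D3:**
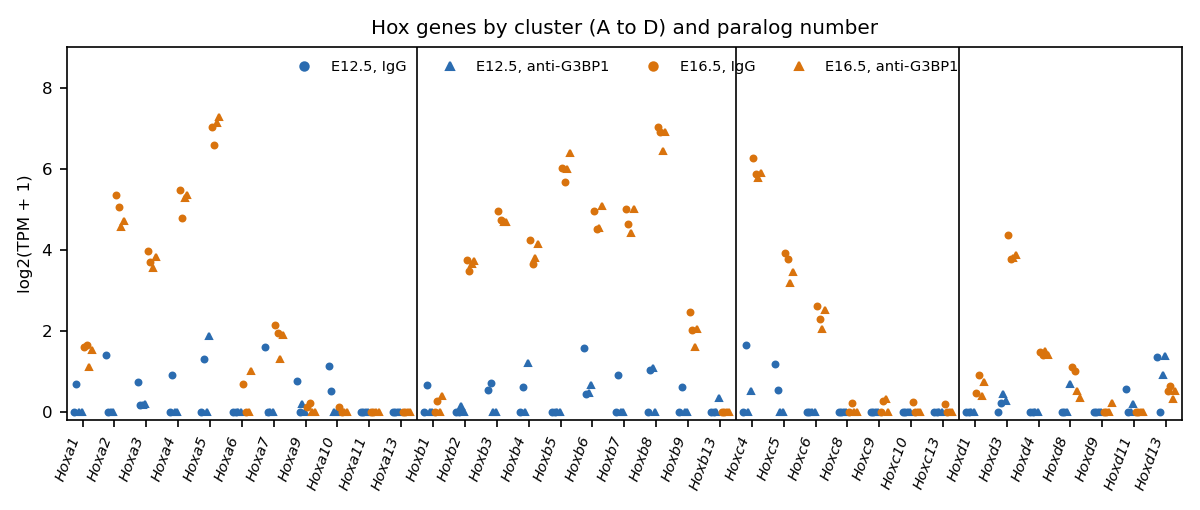
Levels of the 35 Hox genes as log2(TPM + 1), ordered by cluster (A, B, C and D, divided by vertical lines) and by paralog number within a cluster. Each point is 1 library, coloured and shaped by stage and antibody. The orange E16.5 points reach 152 TPM in Hoxa5 and lie below 1 TPM beyond paralog 9, and the blue E12.5 points stay below 3 TPM throughout.

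Genes of the dividing cell were lower at E16.5. Of 44 mitosis genes all 44 were lower, 42 of them by 2-fold or more, with a median of -1.55 and a summed level of 3609 to 4260.0 TPM at E12.5 and 1229 to 1330.3 TPM at E16.5. Mki67, the proliferation antigen Ki-67, measured 173, 185, 205 and 168 TPM at E12.5 and 53.1, 52.8, 60.7 and 51.3 TPM at E16.5, a difference of -1.73 (SE 0.09, adjusted p = 2.58e-06). Ccnb2, a cyclin that drives entry into mitosis, measured 221, 190.1, 228 and 201 TPM at E12.5 and 48.6, 57.8, 50.96 and 55.2 TPM at E16.5, a difference of -1.96 (SE 0.10, adjusted p = 1.54e-06). In both genes the 4 libraries of a stage lay close to one another and the lowest E12.5 library was well above the highest E16.5 library. Cdk1, the mitotic kinase, Top2a, which untangles chromosomes, and Cdc20, which activates the anaphase promoting complex, fell, with differences of -1.36, -1.52 and -1.46. Of the DNA replication genes 39 of 46 were lower (23 at 2-fold or more) and 1 was higher, with a median of -0.98. Mcm2, Mcm3 and Mcm5, subunits of the replicative helicase, fell, with differences of -1.84, -1.79 and -1.48, and Pcna, the sliding clamp, differed by -0.60.

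Regulators of the G1 phase and of exit from the cycle moved both ways, with 9 of 28 higher and 16 lower. Cdkn1a, which encodes the inhibitor p21, measured 8.74, 9.95, 4.51 and 5.94 TPM at E12.5 and 31.8, 28.2, 31.3 and 33.9 TPM at E16.5, a difference of 2.01 (SE 0.20, adjusted p = 5.87e-05). Cdkn1c, which encodes the inhibitor p57 and is expressed as progenitors leave the cycle, measured 586, 677, 679 and 579.96 TPM at E12.5 and 238, 218, 257 and 241 TPM at E16.5, a difference of -1.40 (SE 0.09, adjusted p = 4.42e-06). These inhibitors of the same family thus moved in opposite directions, each without overlap. Gadd45g, a growth arrest gene of newly born neurons, fell by 2.06. Ccnd1 and Ccnd2, cyclins of G1, fell, with differences of -1.59 and -0.67. Cdk5r1 and Cdk5r2, the activators of the neuronal kinase Cdk5, rose by 1.95 and 0.99.

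Many of these genes carry short promoter elements known to time transcription within the cell cycle. A search for them was chosen after the values were seen, in the 250 bases before the start of the first RefSeq entry of each gene (GRCm38.p6) and on both strands. The letters searched were TTTNNCGC for the E2F site of replication genes, TTTGAA for the cell cycle homology region of mitosis genes, called CHR, and CCAAT for the box bound by NF-Y, and matches of different motifs can overlap. Promoter entries matched 12891 tested genes, of which 6.76% held the E2F letters, 10.8% the CHR letters and 35.8% the CCAAT letters. Over all 27025 promoters of the table the shares were 4.39%, 16.3% and 34.5%. E2F letters were found in 10 of 38 replication genes (26.3%) and 4 of 37 mitosis genes (10.8%). CHR letters were found in 13 of 37 mitosis genes (35.1%) and 5 of 38 replication genes (13.2%). CCAAT letters were found in 28 of 37 mitosis genes (75.7%) and 24 of 38 replication genes (63.2%). Among 34 synaptic vesicle genes the shares were 5.88%, 14.7% and 26.5%, and among the 798 genes with a promoter that fell by 2-fold or more they were 7.89%, 13.8% and 39.2%. A match is a description of the letters and does not show that a factor binds there. The last 100 bases before the start of 4 genes that hold such letters are printed 5′ to 3′ on the strand of the gene, with the matches of either strand in capitals.
Mcm6, chr1:128359706-128359805, minus strand: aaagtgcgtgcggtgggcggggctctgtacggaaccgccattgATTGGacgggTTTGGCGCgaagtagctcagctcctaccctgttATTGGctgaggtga
Cdk1, chr10:69352913-69353012, minus strand: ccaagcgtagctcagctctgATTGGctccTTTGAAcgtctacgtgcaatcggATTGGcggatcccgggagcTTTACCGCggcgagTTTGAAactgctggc
Top2a, chr11:99024190-99024289, minus strand: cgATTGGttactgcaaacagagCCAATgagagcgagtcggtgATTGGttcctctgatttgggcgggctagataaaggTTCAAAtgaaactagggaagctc
Ube2c, chr2:164769829-164769928, plus strand: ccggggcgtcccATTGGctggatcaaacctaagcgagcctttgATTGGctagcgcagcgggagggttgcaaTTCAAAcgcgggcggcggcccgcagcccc
Mcm6 carries the E2F letters beside inverted CCAAT boxes, and Cdk1 holds all 3 kinds, while Top2a and Ube2c hold CHR letters with 2 or more CCAAT boxes in either orientation. Mcm6 measured 81.9, 91.1, 103 and 114 TPM at E12.5 and 50.2, 44.1, 51.5 and 46.1 TPM at E16.5, a difference of -1.0002 (SE 0.10, adjusted p = 6.66e-05), and Cdk1 62.5, 59.7, 74.9 and 71.5 TPM at E12.5 and 22.1, 26.2, 27.2 and 26.6 TPM at E16.5, a difference of -1.36 (SE 0.10, adjusted p = 8.63e-06). Ube2c, which passes ubiquitin to the anaphase promoting complex, fell by 1.41.

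Neural progenitor genes fell in most cases, with 23 of 34 lower (16 at 2-fold or more), 5 higher and a median of -0.91. Nes, the intermediate filament nestin, measured 692, 819, 625 and 522 TPM at E12.5 and 111, 115, 115 and 119.6 TPM at E16.5, a difference of -2.50 (SE 0.12, adjusted p = 1.23e-06). Hes5, the effector of Notch that holds progenitors undifferentiated, measured 504, 585, 475 and 497 TPM at E12.5 and 70.4, 58.7, 69.2 and 87.6 TPM at E16.5, a difference of -2.84 (SE 0.13, adjusted p = 1.02e-06). The stages did not overlap in either gene. Vim, Pax6 and Notch1, an intermediate filament, a transcription factor and the Notch receptor of radial glia, fell, with differences of -2.13, -1.69 and -1.66. Fabp7, the radial glial lipid-binding protein, was not called: it measured 1237, 1019, 1209 and 1148 TPM at E12.5 and 1107, 1064, 1458 and 1407 TPM at E16.5. Among the members that rose, Hopx, a gene of later radial glia, measured 7.68, 2.69, 3.37 and 0.732 TPM at E12.5 and 38.95, 29.5, 39.6 and 42.04 TPM at E16.5, a difference of 3.28 (SE 0.41, adjusted p = 2.05e-04), and Ptprz1 rose by 0.68.

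A list of proneural factors, which commit progenitors to neurons, Delta ligands and genes of newborn neurons was lower in 14 of 29 cases and higher in 9. Of the 9 higher genes, most were genes of newborn neurons or their precursors, such as Dcx, Stmn2, Tubb3, Elavl2 and Eomes. Neurog2 measured 379, 349, 350.3 and 344 TPM at E12.5 and 77.8, 72.8, 112 and 98.9 TPM at E16.5, a difference of -1.99 (SE 0.12, adjusted p = 3.68e-06). Neurog1, its relative, fell by 4.33. The Notch ligand genes Dll1 and Dll3 fell, with differences of -2.33 and -3.01. Dcx, the microtubule protein of migrating neurons, rose, with 70.4, 93.9, 65.5 and 57.9 TPM at E12.5 and 221, 214, 243 and 221 TPM at E16.5 and a difference of 1.65 (SE 0.13, adjusted p = 1.68e-05).

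The genes of the mature neuron rose with few exceptions. Of 46 genes of synaptic vesicles and the active zone 42 were higher (37 at 2-fold or more) and 4 were not called, with a median of 1.88. Of 67 postsynaptic and receptor genes 62 were higher and 1 lower, with a median of 1.84, and of 51 ion channel and transporter genes 48 were higher and 1 lower, with a median of 1.75. Syt1, the calcium sensor of transmitter release, measured 31.2, 26.2, 21.2 and 17.1 TPM at E12.5 and 133, 131, 112 and 114 TPM at E16.5, a difference of 2.34 (SE 0.12, adjusted p = 1.79e-06). Camk2b, a kinase of the postsynaptic density, measured 15.3, 9.54, 6.55 and 6.27 TPM at E12.5 and 172, 153, 140.2 and 143 TPM at E16.5, a difference of 3.95 (SE 0.18, adjusted p = 1.10e-06). In both genes the first E12.5 IgG library was the highest of its stage and still far below every E16.5 library. The only called fall of the receptor list was Chrna4, a nicotinic receptor subunit, with a difference of -0.27 (SE 0.09, adjusted p = 0.0312) and overlapping stages. Leaving out any 1 of 6 libraries ended that call, with adjusted p of 0.0527 to 0.0984; the second E12.5 IgG and second E12.5 anti-G3BP1 libraries were the exceptions.

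Receptor subunits differed in their levels and changes. Among AMPA receptor genes Gria1 measured 18.3, 18.1, 8.81 and 7.26 TPM at E12.5 and 158, 154, 135 and 143 TPM at E16.5, a difference of 3.50 (SE 0.18, adjusted p = 2.33e-06). Among NMDA receptor genes Grin2b, the subunit of the embryonic receptor, measured 2.66, 2.41, 1.20 and 0.76 TPM at E12.5 and 28.5, 26.6, 24.4 and 24.6 TPM at E16.5, a difference of 3.36 (SE 0.20, adjusted p = 3.86e-06). Grin2a, the subunit that takes over after birth, was low at both stages, at 0.31 to 0.866 TPM at E12.5 and 1.64 to 2.31 TPM at E16.5. Of the GABA-A receptor alpha subunits, Gabra5 rose by 4.35 and Gabra2 by 1.04. The vesicular glutamate transporter Slc17a7 of cortical neurons rose by 3.13 and Slc17a6, that of subcortical neurons, by 0.88. Slc12a5, the chloride exporter KCC2 that makes GABA inhibitory, measured 21.4, 25.9, 12.7 and 12.4 TPM at E12.5 and 133, 125, 99.9 and 113 TPM at E16.5, a difference of 2.69 (SE 0.14, adjusted p = 2.21e-06). Slc12a2, the chloride importer NKCC1, measured 15.8, 12.8, 16.02 and 12.4 TPM at E12.5 and 24.4, 23.2, 22.3 and 20.5 TPM at E16.5 and rose by 0.64. Both rose, and KCC2 by the larger difference on the log2 scale; the difference between the genes was not tested.

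Of 49 neuronal cytoskeleton genes 38 were higher (23 at 2-fold or more) and 4 lower, with a median of 0.85. Mapt, the axonal protein tau, measured 132, 134, 103 and 94.6 TPM at E12.5 and 692, 637, 561 and 652 TPM at E16.5, a difference of 2.46 (SE 0.09, adjusted p = 5.46e-07). Tubb2a rose by 2.12, Stmn2, of growth cones, by 1.45 and Map2, of dendrites, by 1.005. Tubb5, a tubulin of dividing and young cells, measured 2189 to 2921 TPM at E12.5 and 3005 to 3179 TPM at E16.5 and differed by 0.32 (SE 0.09, adjusted p = 0.0198). Leaving out any 1 of the 4 anti-G3BP1 libraries ended that call, with adjusted p of 0.0533 to 0.07004. Tubulin genes share reads with near copies and pseudogenes, so their single values are uncertain.

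Genes of axon guidance and adhesion moved in both directions, with 40 of 67 higher, 13 lower and a median of 0.71. Robo3, which lets commissural axons cross the midline of hindbrain and spinal cord, measured 240.3, 270.4, 343 and 265 TPM at E12.5 and 22.2, 18.5, 11.2 and 9.72 TPM at E16.5, a difference of -4.16 (SE 0.23, adjusted p = 2.46e-06). Robo2, a receptor for Slit repulsion, measured 9.03, 11.4, 12.1 and 8.83 TPM at E12.5 and 45.7, 41.6, 45.9 and 42.9 TPM at E16.5, a difference of 2.002 (SE 0.14, adjusted p = 7.75e-06). These genes of one family thus moved in opposite directions. Ntn1, the midline attractant netrin, measured 268, 217, 125 and 113 TPM at E12.5 and 70.1, 70.2, 58.8 and 65.8 TPM at E16.5 and fell by 1.35. Its receptor Dcc fell by 0.83. Sema3a, a repellent of growing axons, rose by 2.24, its coreceptor Nrp1 by 1.15 and the plexin Plxna4 by 2.14.

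Of 34 astroglial genes 25 were higher (22 at 2-fold or more) and 2 lower, with a median of 1.80 and sums of 1760.3 to 2524 TPM at E12.5 and 3545 to 4010.2 TPM at E16.5. Slc1a3, the glutamate transporter GLAST of radial glia and astrocytes, measured 37.5, 22.9, 15.5 and 15.6 TPM at E12.5 and 96.9, 103, 121 and 123 TPM at E16.5, a difference of 2.32 (SE 0.24, adjusted p = 7.59e-05). Bcan, the matrix proteoglycan brevican, measured 14.3, 5.02, 0.359 and 3.55 TPM at E12.5 and 124, 116, 111 and 129.8 TPM at E16.5, a difference of 4.63 (SE 0.51, adjusted p = 1.01e-04). The E12.5 libraries of both genes varied among themselves more than the E16.5 libraries did. Markers of mature astrocytes were low at both stages: Gfap measured 0 to 0.645 TPM at E12.5 and 1.09 to 2.01 TPM at E16.5 and Aqp4 0 to 1.96 TPM at E12.5 and 4.03 to 5.47 TPM at E16.5. Slc1a2 and Gja1 were not called, at adjusted p values of 0.4 and 0.26. Fgfr3 and Sox9, of early radial glia, were the 2 lower members, with differences of -2.32 and -1.37.

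Of 19 genes of the oligodendrocyte lineage 12 were higher (9 at 2-fold or more) and 3 lower (2 at 2-fold or more), with a median of 1.07. The lower members included Nkx2-2, a transcription factor, which had the largest fall of the list. Pdgfra, the growth factor receptor of oligodendrocyte precursors, measured 2.71, 2.71, 2.11 and 0.775 TPM at E12.5 and 12.9, 11.6, 11.7 and 12.4 TPM at E16.5, a difference of 2.15 (SE 0.25, adjusted p = 1.29e-04). Sox10 and Olig1, transcription factors of the lineage, rose by 2.52 and 3.28, and Olig2, which is also a progenitor factor, by 0.59. The myelin gene Mbp rose by 0.91 to 16.3 to 17.5 TPM.

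Genes of early developmental timing, many of which are active in young embryos and silenced later, were mostly lower. Of 17 tested, 11 were lower (7 at 2-fold or more) and 2 higher, with a median of -0.90. Hmga2, a chromatin protein of early neural stem cells, measured 40.7, 33.7, 43.1 and 37.5 TPM at E12.5 and 5.73, 4.69, 6.16 and 4.67 TPM at E16.5, a difference of -2.66 (SE 0.15, adjusted p = 2.95e-06). Igf2bp1, an RNA-binding protein of fetal tissue, measured 83.4, 75.9, 71.4 and 62.2 TPM at E12.5 and 14.6, 14.3, 14.4 and 14.4 TPM at E16.5, a difference of -2.26 (SE 0.11, adjusted p = 1.36e-06). Lin28a, which blocks the maturation of let-7 microRNAs, measured 11.7, 5.79, 7.66 and 6.67 TPM at E12.5 and 0.791, 0.629, 0.144 and 1.10 TPM at E16.5, a difference of -2.42 (SE 0.30, adjusted p = 1.84e-04). All 3 separated the stages without overlap. Igdcc3, a cell surface protein of early neural tissue, is no member of the list but was among the largest falls of all genes and is set beside it: it measured 337, 269, 338 and 335 TPM at E12.5 and 9.06, 7.87, 10.1 and 9.16 TPM at E16.5, a difference of -4.99 (SE 0.10, adjusted p = 6.98e-08). Trim71 and Prtg fell, with differences of -1.47 and -2.12. Lin28b and Nr6a1 were not called, with differences of 0.28 and 0.43 (adjusted p = 0.268 and 0.122). Myc and Mycn rose by 1.93 and 0.91.

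The let-7 family, whose level is known to rise as embryonic tissues mature, pairs through bases 2 to 8 of each microRNA with target transcripts, and several of these genes are established targets. MicroRNAs themselves were not measured here. Of the mature mouse microRNAs listed by RefSeq, 11 share that seed. It is in capitals in the 3 printed here, which show how far the rest of the sequence varies.
mmu-let-7a-5p: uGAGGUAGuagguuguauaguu
mmu-let-7i-5p: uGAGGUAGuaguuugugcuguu
mmu-miR-98-5p: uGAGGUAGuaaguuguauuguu
The letters CTACCTC, which pair with the seed, were counted in the longest annotated 3′ UTR of each coding gene (GRCm38), a count chosen after the values were seen. Sites of 3 genes that fell and 1 that was not called are printed 5′ to 3′ with 25 bases each, all on the minus strand.
Hmga2, chr10:120364219-120364243: gacattcaatttCTACCTCagcatc
Hmga2, chr10:120361686-120361710: caaaacacactaCTACCTCttaagt
Igf2bp1, chr11:95959352-95959376: cagtgctattaaCTACCTCagcccc
Lin28a, chr4:134005184-134005208: cagcctgttgaaCTACCTCattttt
Lin28b, chr10:45381017-45381041: cgggcgggaagtCTACCTCatgcaa
Hmga2, Igf2bp1 and Trim71 have 4 such sites each and fell, with differences of -2.66, -2.26 and -1.47. Lin28b also has 4 sites and Nr6a1 has 8, and neither was called. Myc and Mycn have 0. Igdcc3 has 2. Over all 14745 coding genes with a 3′ UTR, the 1522 with 1 or more sites had a median difference of 0.34 against 0.25 for all, with 22.5% higher and 6.44% lower by 2-fold or more against 20.3% and 6.16%. The 26 genes with 3 or more sites, which include timing genes, had a median of 0.06. Genes with sites also had longer 3′ UTRs (median 2326 bases against 1150), and longer transcripts were higher at E16.5, as given below, a property whose part was not tested. For miR-9, a neural microRNA, 2017 genes with a site had a median of 0.37.

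**Figure D4:**
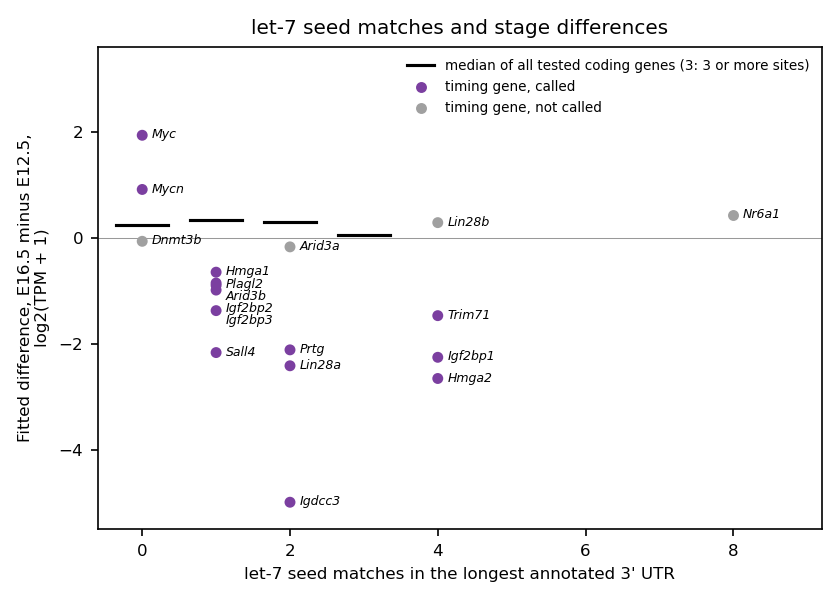
Fitted difference between stages in log2(TPM + 1) against the number of let-7 seed matches in the longest annotated 3′ UTR, for the 17 tested timing genes and Igdcc3. Purple points were called and grey points were not, and black bars are medians of all tested coding genes with 0, 1, 2 and 3 or more matches (0.24, 0.34, 0.30 and 0.06). Timing genes with 4 matches lie at -2.66 to 0.28.

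Regulators of neuronal splicing and RNA stability rose in 22 of 31 cases and fell in 4, with a median of 0.52. Rbfox1, a splicing factor of maturing neurons, measured 3.53, 8.50, 5.47 and 4.29 TPM at E12.5 and 46.03, 43.3, 46.8 and 46.5 TPM at E16.5, a difference of 2.91 (SE 0.23, adjusted p = 1.41e-05). Rbfox3, known as the neuronal nuclear antigen NeuN, rose by 1.03. Ptbp1, which represses neuronal exons in progenitors, measured 101, 101, 74.1 and 77.8 TPM at E12.5 and 60.2, 62.3, 64.8 and 67.1 TPM at E16.5 and fell by 0.46 (adjusted p = 0.00948, and 0.155 in the anti-G3BP1 libraries alone). Ptbp2, its neuronal relative, measured 103, 109.99, 79.7 and 77.5 TPM at E12.5 and 129, 118, 132 and 119 TPM at E16.5 and rose by 0.44 (adjusted p = 0.00964, and 0.161 in the IgG libraries alone). The stages did not overlap in either gene of this pair.

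Alternative subunits of chromatin complexes also moved in opposite directions. In the BAF remodelling complex Actl6a, the subunit of progenitors, measured 55.2, 66.7, 71.95 and 87.1 TPM at E12.5 and 27.8, 30.6, 32.7 and 34.4 TPM at E16.5, a difference of -1.12 (SE 0.11, adjusted p = 5.54e-05). Actl6b, its neuronal replacement, measured 73.2, 87.6, 87.5 and 127 TPM at E12.5 and 224, 234, 202 and 215 TPM at E16.5, a difference of 1.24 (SE 0.15, adjusted p = 1.79e-04). Smarca4 and Smarca2, alternative ATPases of the complex, differed by -0.38 and 2.08. Actl6b exceeded Actl6a in each of the 8 libraries, by a wider gap at E16.5. Ezh2, the methyltransferase of Polycomb in dividing cells, fell by 1.23. Of the whole list of 43 chromatin genes 12 were higher and 14 lower. The growth factors Mdk and Ptn, the 2 members of the midkine family, moved in opposite directions. Mdk (chr2:91929805-91932297) measured 2069.5, 1952, 2516 and 2855 TPM at E12.5 and 416, 464, 521 and 496 TPM at E16.5, a difference of -2.29 (SE 0.08, adjusted p = 4.92e-07). Ptn measured 159.97, 145, 209 and 187 TPM at E12.5 and 679, 703, 831 and 756 TPM at E16.5, a difference of 2.09 (SE 0.08, adjusted p = 5.56e-07).

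**Figure D5:**
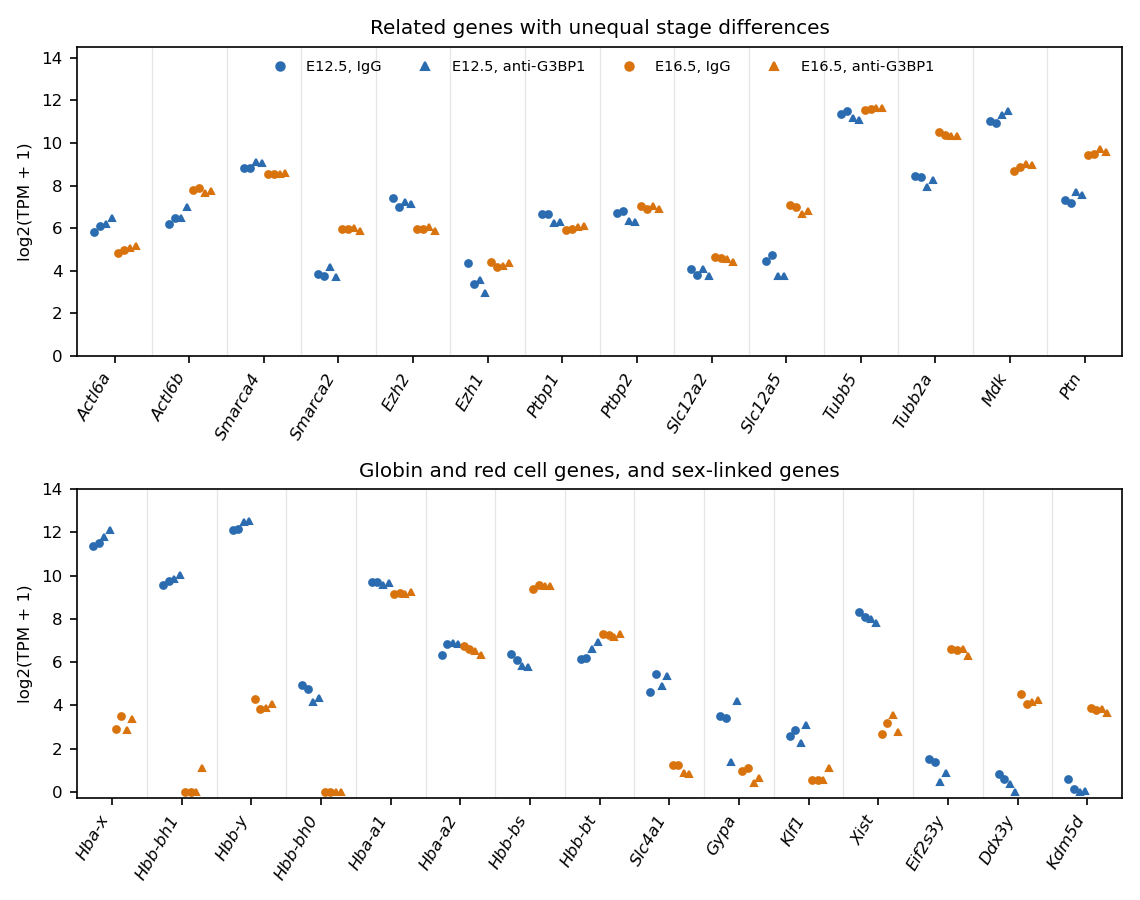
Levels of related genes (upper panel) and of globin, red cell and sex-linked genes (lower panel) as log2(TPM + 1) in each of the 8 libraries. Each point is 1 library, coloured by stage and shaped by antibody. Actl6a, Ezh2, Ptbp1 and Mdk lie higher in blue and their partners Actl6b, Ptbp2 and Ptn higher in orange, and Mdk exceeds Ptn only at E12.5.

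The gene of the antibody target, G3bp1, measured 148, 163, 154 and 143 TPM at E12.5 and 114, 110.2, 123 and 119.8 TPM at E16.5, a difference of -0.38 (SE 0.08, adjusted p = 0.00375). G3bp2, its paralog, measured 71.9, 77.9, 67.4 and 63.99 TPM at E12.5 and 116, 109, 119 and 115 TPM at E16.5, a difference of 0.70 (SE 0.09, adjusted p = 1.85e-04). G3bp1 fell and G3bp2 rose, both without overlap and both by less than 2-fold; in the anti-G3BP1 libraries alone G3bp1 gave an adjusted p of 0.0541. Caprin1, a partner of both, was not called, with 135, 136, 103 and 119 TPM at E12.5 and 132, 123, 145 and 133 TPM at E16.5. Of 20 stress granule genes 3 were higher and 5 lower, none by 2-fold. Of 6 deaminase genes tested 3 were higher and 1 lower, and 1 was higher and 1 lower after quantile normalization, in the IgG libraries alone and, of 4 tested, in the anti-G3BP1 libraries alone; Adar rose by 0.76, and Adarb1 measured 126, 59.2, 90.8 and 245 TPM at E12.5 and 29.9, 30.2, 24.8 and 22.7 TPM at E16.5, a difference of -2.05 (SE 0.37, adjusted p = 0.00161). The E12.5 libraries of Adarb1 were far apart from one another, but none came down to the E16.5 levels.

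Signalling genes of the patterning centres fell in 31 of 63 cases (26 at 2-fold or more) and rose in 20, with a median of -0.57. Shh, the ventral morphogen, measured 229.7, 249.4, 118 and 88.1 TPM at E12.5 and 12.7, 13.5, 9.0005 and 8.60 TPM at E16.5, a difference of -3.74 (SE 0.16, adjusted p = 9.85e-07). Both E12.5 IgG libraries lay above both anti-G3BP1 libraries, as in Sst, Npy, Tbr1 and Ntn1. The order at E12.5 was the reverse in Emx2, Tcf7l2, Actl6a and Mdk, among others, and no gene was called for the antibody. Gli1, a target of Shh signalling, fell by 2.01. Ptch1, its receptor and target, fell by 0.91. Among Wnt genes the receptor Fzd10 and the enhancer Rspo1 fell, with differences of -4.90 and -3.89, and the ligands Wnt1 and Wnt7b fell, with differences of -2.64 and -1.34. Lef1 and Axin2, targets of the pathway, fell, with differences of -2.17 and -0.95, while Sfrp1, a secreted Wnt modulator, rose by 0.90. Wnt8b, of the cortical hem and diencephalic midline, measured 51.9, 67.2, 22.2 and 12.6 TPM at E12.5 and 2.12, 3.81, 5.71 and 5.45 TPM at E16.5 and fell by 2.69. The retinoid genes Aldh1a3 and Aldh1a2, which make retinoic acid, and its receptor gene Rarb rose by 2.76, 2.28 and 2.07, while Crabp2, a retinoic acid carrier, fell by 3.69. Neurotrophin and growth factor genes rose in 14 of 24 cases and fell in 3. Ntf3 rose by 2.99, and the receptor genes Ntrk3 and Ntrk2 rose by 2.25 and 0.99.

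The globin genes of the primitive red cell were lower and an adult form was higher at E16.5. Hbb-y (chr7:103851749-103853216), an embryonic beta-like globin, measured 4405, 4560.2, 5631 and 5946 TPM at E12.5 and 18.4, 13.005, 13.6 and 15.8 TPM at E16.5, a difference of -8.31 (SE 0.13, adjusted p = 1.43e-08). Hba-x, the embryonic alpha-like globin, measured 2677, 2872, 3583 and 4417 TPM at E12.5 and 6.55, 10.2, 6.14 and 9.17 TPM at E16.5, a difference of -8.55 (SE 0.19, adjusted p = 8.73e-08). Hbb-bs, an adult beta globin, measured 80.9, 67.3, 55.1 and 53.5 TPM at E12.5 and 670.1, 761, 728 and 742 TPM at E16.5, a difference of 3.50 (SE 0.12, adjusted p = 3.66e-07). Each separated the stages entirely, and embryonic globins made up 88.1 to 91.2% of globin TPM at E12.5 and 1.29 to 1.64% at E16.5. Hbb-bh1 measured 766, 862, 905 and 1047 TPM at E12.5 and 0, 0, 0 and 1.15 TPM at E16.5, and Hbb-bh0 30.1, 26.4, 16.96 and 19.4 TPM at E12.5 and 0 in every E16.5 library. The adult alpha globin Hba-a1 measured 834, 841, 745 and 819 TPM at E12.5 and 567, 576, 559 and 609 TPM at E16.5 and fell by 0.49, and its near copy Hba-a2, with which it shares reads, was not called, at 78.6 to 116 TPM at E12.5 and 80.02 to 105 TPM at E16.5. Without the first E12.5 IgG library Hba-a2 differed by -0.32 (adjusted p = 0.0244). Over all 17 red cell genes tested 10 were lower and 2 higher, and their sum was 9111 to 12720.0 TPM at E12.5 and 1664 to 1763 TPM at E16.5. The erythroid factor Klf1 and the red cell anion exchanger Slc4a1 fell, with differences of -2.02 and -4.04.

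Vessel genes rose in 17 of 31 cases and fell in 1, a share that was 12 of 31 with 5 falls after quantile normalization. Cldn5, the tight junction protein of the blood-brain barrier, measured 41.1, 55.7, 47.9 and 51.8 TPM at E12.5 and 259.5, 257, 227 and 244 TPM at E16.5, a difference of 2.31 (SE 0.11, adjusted p = 1.27e-06). Pecam1, a general endothelial marker, was not called, with 9.89 to 19.2 TPM at E12.5 and 15.8 to 17.3 TPM at E16.5. Pdgfrb, of pericytes, rose by 0.81, and Plvap, which marks leaky vessels before the barrier closes, fell by 1.42. Slco1c1, a thyroid hormone transporter of the barrier, and Rgs5, of pericytes, rose by 2.50 and 2.67.

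Of 22 microglial genes 8 were higher, near the 32.3% of all genes, and 1 was lower, and 2 were higher and 2 lower after quantile normalization. P2ry12, of resident microglia, measured 0, 0.801, 1.15 and 1.53 TPM at E12.5 and 4.34, 3.86, 4.86 and 6.69 TPM at E16.5, a difference of 1.73 (SE 0.28, adjusted p = 8.57e-04). Cx3cr1, a chemokine receptor of microglia, was not called, with 4.74 to 9.24 TPM at E12.5 and 4.72 to 5.62 TPM at E16.5. Their sums were 184 to 289.6 TPM at E12.5 and 229 to 281 TPM at E16.5, which overlapped.

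Markers of tissues around the brain were counted as well. Of 26 meningeal and mesenchymal genes 13 were lower and 6 higher, with sums of 1023 to 1383 TPM at E12.5 and 466 to 617 TPM at E16.5. Col1a1 measured 72.1, 102, 105 and 104 TPM at E12.5 and 24.4, 26.3, 23.8 and 20.1 TPM at E16.5, a difference of -1.96 (SE 0.15, adjusted p = 1.24e-05), whereas Ptgds, made by the arachnoid, measured 30.6, 9.07, 2.21 and 3.70 TPM at E12.5 and 241, 243, 156 and 162 TPM at E16.5, a difference of 4.56 (SE 0.41, adjusted p = 3.08e-05). The collagen gene Col2a1, of cartilage and of early neuroepithelium, fell by 3.28, and of 10 tested cartilage genes 3 were higher and 2 lower. Skeletal muscle genes summed to 45.97 to 96.99 TPM at E12.5 and 36.1 to 52.3 TPM at E16.5 over 20 genes, with Myf5 at 0 in all 8 libraries. Fetal liver genes summed to 15.99 to 37.9 and 33.3 to 52.6 TPM, with Serpina1a and Fabp1 at 0, and pituitary genes to 2.77 to 4.76 and 9.42 to 13.9 TPM, with Gh at 0. Eye genes summed to 20.95 to 27.4 and 69.3 to 102 TPM, of which Rlbp1, also a glial gene, made up 0 to 4.94 and 34.2 to 59.7 TPM, and Crygs was at 0. Epithelial genes summed to 35.8 to 93.02 and 36.5 to 49.6 TPM. Of 17 tested genes of cranial ganglia and neural crest 5 were higher and 5 lower. Ttr, the defining gene of the choroid plexus, measured 1.15 to 8.18 TPM at E12.5 and 2.43 to 9.06 TPM at E16.5 and was not called, with adjusted p = 0.192 (0.0448 without the first E12.5 IgG library). Of 10 tested genes of choroid plexus and ependyma 1 was higher and 3 lower. The part of these tissues in the other differences was not tested.

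Of 80 cytosolic ribosomal protein genes 46 were lower, 4 of them by 2-fold or more, and 2 were higher, with a median of -0.35; in the anti-G3BP1 libraries alone 27 were lower and 8 higher. They took 3.05 to 3.596% of all TPM at E12.5 and 2.30 to 2.57% at E16.5. Single ribosomal genes share reads with many pseudogenes and are uncertain. Processed pseudogenes as a class took 6.32 to 11.98% of TPM at E12.5 and 2.95 to 3.67% at E16.5, with 690 of 1890 lower and 98 higher. Mitochondrially encoded genes took 5.43 to 7.52% and 4.44 to 5.51% of TPM, ranges that overlap, and 9 of 13 were lower, or 5 of 13 after quantile normalization. Of 50 nuclear respiratory chain genes 17 were higher and 9 lower, none by 2-fold. Among glycolytic genes Eno2, the neuronal enolase, measured 17.7, 18.4, 12.9 and 8.97 TPM at E12.5 and 137, 124, 112 and 118 TPM at E16.5, a difference of 3.04 (SE 0.15, adjusted p = 1.54e-06), and Hk2, the hexokinase of proliferating cells, fell by 1.15. Eef1a2, the elongation factor of mature neurons and muscle, measured 55.9, 66.2, 57.03 and 105 TPM at E12.5 and 489, 526, 499.7 and 550.1 TPM at E16.5, a difference of 2.89 (SE 0.18, adjusted p = 4.02e-06). The difference between stages also moved with transcript length, with medians of 0.09, 0.19, 0.32 and 0.44 over 4 groups of coding genes from the shortest to the longest.

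Imprinted genes moved both ways, with 13 of 24 higher and 8 lower. Ndn, a paternally expressed gene of postmitotic neurons, measured 100.3, 163, 118 and 114 TPM at E12.5 and 476, 451, 458 and 485 TPM at E16.5, a difference of 1.93 (SE 0.14, adjusted p = 8.69e-06). Plagl1 and Grb10, growth regulators of dividing cells, fell, with differences of -1.46 and -1.48. Meg3 rose by 1.45 while its neighbour Dlk1, expressed from the other parental copy, fell by 1.22.

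Sex-linked genes separated the stages. Xist, the RNA that silences one X chromosome in female cells, measured 315, 272, 256 and 226 TPM at E12.5 and 5.35, 8.21, 10.6 and 5.69 TPM at E16.5. The Y-linked genes gave 1.87, 1.63, 0.35 and 0.801 TPM at E12.5 and 96.6, 93.5, 95.8 and 76.5 TPM at E16.5 for Eif2s3y, and 0.512, 0.0897, 0 and 0.0366 TPM at E12.5 and 13.8, 12.95, 13.1 and 11.6 TPM at E16.5 for Kdm5d. Xist was high and the Y-linked genes were low in each E12.5 library, and the reverse held in each E16.5 library. The labels give no sex, and the part of sex in other differences cannot be told apart from that of stage.

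Immediate early genes, which are induced within minutes by activity or handling, rose in part. Of 28 immediate early and heat shock genes 12 were higher and 4 lower, the 4 being Hspa5, Ier2, Hsp90ab1 and Jund. In the IgG libraries alone 5 of 27 were higher and 3 lower, and in the anti-G3BP1 libraries alone 14 of 28 were higher and 4 lower. After quantile normalization 9 of 28 were higher and 4 lower. Npas4, which answers to neuronal activity, measured 5.16, 6.74, 1.76 and 2.82 TPM at E12.5 and 34.1, 35.9, 27.3 and 31.7 TPM at E16.5, a difference of 2.805 (SE 0.22, adjusted p = 1.56e-05). Egr1 rose by 1.66 and Hspa1a, an inducible heat shock gene, by 1.51, all from low levels, and the labels do not give the handling times.

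Antibody and stage were crossed, so that each could be tested. With stage as a covariate, 0 genes were called between anti-G3BP1 and IgG libraries in limma (1939 at an unadjusted p under 0.05). For the interaction of stage and antibody 0 genes were called (2883 at an unadjusted p under 0.05, smallest adjusted p 0.0658). Leaving out the second E12.5 IgG library gave 156 called genes for the interaction, so that count rests on which E12.5 libraries are used. In the IgG libraries alone 4132 genes were higher and 2463 lower between stages, and in the anti-G3BP1 libraries alone 5678 were higher and 2995 lower.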

How the data were processed

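Per the labels' protocols, RNA was extracted with TRIzol and the 8 brain libraries were built using a VAHTS Universal V6 kit. TPM values per gene were computed by the authors and deposited in 1 table for each stage. The submitters' processing notes name HISAT2 2.2.1, BWA 0.7.17, featureCounts 2.0.1, Picard 3.1.1 and GATK 4.5.0.0, with builds GRCm38 and mm10; which of them made the TPM values is not given in the sources used here. Whole-number counts of reads covering edited positions, as deposited by the authors in the editing tables, served only as a measure of relative depth, since TPM keeps none.

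TPM was rescaled to the same total over the genes in both tables and tested as log2(TPM + 1) with limma 3.58.1 in R 4.3.3 (lmFit, eBayes with a trend), with stage and antibody as terms, for genes with at least 1 TPM in at least 2 libraries. P-values were adjusted with the Benjamini-Hochberg method over all tested genes, and a gene is called at an adjusted p under 0.05. On simulated data with a 2-fold change in 200 genes, 79.5% of them were called, with 12 false calls. The changed genes were drawn from those with an average level above about 10 TPM, and the noise was equal at both stages. The share called therefore does not cover genes of lower level or the wider spread of the E12.5 libraries. The comparison, the gene lists and the rules were chosen with earlier results of these data known. Of 203 genes given with values, 149 follow the naming rule. These are the 20 highest and 20 lowest called genes with at least 10 TPM at the higher stage, and up to 6 called members per direction and 3 not called of each list, with G3BP1 partners and fixed pairs. The other 54, among them Cdk1, Mcm6, Tbr1 and Robo2, and the promoter and microRNA searches were chosen after their values were seen. Alternatives varied the pseudocount, the filter, the scaling, the covariate, the model and the libraries. Promoters and microRNAs come from RefSeq (GRCm38.p6) and 3′ UTRs from the GRCm38 gene annotation.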

Additional observations from a re-analysis of the deposited data

Results flagged for a closer look

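Among 388 groups of 4 libraries, 1 for each stage of a gene given with values above, 21 had an outlying library by Dixon's ratio (above 0.829). The ratio divides the gap to the nearest library by the range of the 4, so a flagged value can lie close to the other 3 in TPM. Chance alone gives about 1 in 20 such groups if values are normally distributed, which groups with several values at 0, as for Crh, are not. The first E12.5 IgG library, the shallowest, was the highest for Dll3 (377 TPM), Drd1 (2.14 TPM), Slc18a3 (4.83 TPM), Slc6a5 (2.69 TPM) and Ttr (8.18 TPM), and the lowest for Col1a1 (72.1 TPM) and Hba-a2 (78.6 TPM). The second E12.5 IgG library was the highest for Dlx2 (24.5 TPM), Oxt (6.33 TPM), Aldh1a2 (4.2 TPM), Aqp4 (1.96 TPM) and Crh (1.03 TPM), and the lowest for Igdcc3 (269 TPM). The first E12.5 anti-G3BP1 library was the highest for Rlbp1 (4.94 TPM). Together the E12.5 IgG libraries account for 13 of the 21.

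At E16.5 the second anti-G3BP1 library was the highest for Hbb-bh1 (1.15 TPM), Klf1 (1.14 TPM) and Mbp (17.5 TPM) and the lowest for Eif2s3y (76.5 TPM). The first anti-G3BP1 library was the highest for Tbr1 (162 TPM) and the lowest for Sox10 (6.61 TPM), and the first IgG library was the highest for Igf2bp1 (14.6 TPM). None of these values brought a library of one stage to the levels of the other, apart from Hba-a2 and Ttr, whose stages overlap.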

How the results depend on the processing

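The counts of called genes, 6516 higher and 3573 lower, ranged from 5393 to 6627 and from 2975 to 3731 when 1 library was left out, and at 2-fold or more from 3367 to 3883 and from 1676 to 1986. In the IgG libraries alone 4132 genes were higher. With a pseudocount of 5 TPM the counts at 2-fold or more fell to 2059 higher and 1183 lower, and a test against a 2-fold change (limma's treat) called 1485 higher and 616 lower. The antibody effect gave 0 genes in each alternative run in which it was tested. Those runs were a pseudocount of 0.1 TPM, no filter on low values, the replicate block and leaving out 1 library. The interaction of stage and antibody, with 0 genes called, gave 2 with a pseudocount of 0.1 TPM, 1 with the replicate block, and 0 to 156 when 1 library was left out. For these counts the cause was not tested. The replicate numbers did not pair the libraries: deviations of same-numbered libraries correlated between -0.025 and 0.030, and a fit with the replicate block gave 6314 higher and 3447 lower and changed no call among the named genes. Genes not called whose small difference changed sign were Caprin1 (-0.0866), Cx3cr1 (0.0354), Fabp7 (-0.0499) and Hba-a2 (0.0912) in the IgG libraries alone, Slc1a2 (0.144) in the anti-G3BP1 libraries alone and Gja1 (-0.0346) after quantile normalization; the cause was not tested. Single-gene results otherwise kept their call in 4337 of 4443 fits; 92 lost it, 53 of them against the 2-fold threshold, and 8 gained it. Depth limits low genes, above all in the first E12.5 IgG library.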
